A study of Arabidopsis thaliana with 14 samples.

Results

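The PIP aquaporins (plasma membrane intrinsic proteins) were followed in the root transcriptomes of a study on THO/TREX, the nuclear complex that couples transcription to RNA processing and export. Members were taken by gene identifier: PIP1-1 (AT3G61430), PIP1-2 (AT2G45960), PIP1-3 (AT1G01620), PIP1-4 (AT4G00430), PIP1-5 (AT4G23400), PIP2-1 (AT3G53420), PIP2-2 (AT2G37170), PIP2-3 (AT2G37180), PIP2-4 (AT5G60660) and PIP2-7 (AT4G35100). The hyphen stands for the semicolon that Arabidopsis nomenclature puts between the digits. They are 10 of the 33602 genes counted in each of 14 samples. Aquaporins are membrane channels for water and other small neutral solutes. They assemble as tetramers in which every subunit has its own pore. PIP1 and PIP2 proteins mix within tetramers, and many PIP1 proteins reach the plasma membrane only together with a PIP2 partner. In roots, PIPs carry much of the cell-to-cell water flow and are regulated through phosphorylation, trafficking and degradation of the protein as well as through transcript level.

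All plants were Arabidopsis thaliana in the Col-0 background, and only roots were sequenced, as polyadenylated RNA. The pot-grown groups were 3 weeks old, had single-end libraries by the sample labels (the study's text gives paired-end) and n = 2 each: the double mutant pho1-7 hpr1-5, the double mutant pho1-7 tex1-4, the single mutant pho1-7, and Col-0. The plate-grown groups were 10 days old by the sample labels, which differ from the study's text on this age, grew on medium with sucrose, had paired-end libraries and n = 3 each: tex1-4 and Col-0. Each gene is represented by 1 mutant allele: PHO1 (phosphate export to the xylem), TEX1 and HPR1 (both subunits of THO), of which pho1-7 and tex1-4 are T-DNA insertions. The labels' hpr1 allele name is kept here, although the study's text numbers this allele differently. Both double mutants also carry pho1-7, so pho1-7 was the reference for the added mutation and Col-0 for the sum of both.

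Gene-assigned reads per sample ran from 56068761 to 110039106. The mutated genes followed the labels. TEX1 stood at 0.678 to 2.70 CPM (library-scaled read counts, on 1 scale over all samples) in its mutants, against 11.9 to 15.6 CPM elsewhere. HPR1 stood at 11.4 and 12.0 CPM in pho1-7 hpr1-5, against 26.0 to 35.0 CPM elsewhere. PHO1 stood at 182 to 408 CPM in the pot-grown mutants, against 923 and 983 CPM in Col-0 from pots. Root markers for endodermis, xylem, phloem and epidermis had reads in every sample. Green-tissue markers were low but uneven: the sum of 6 was 8.99 and 126 CPM in the pho1-7 tex1-4 samples, against 87.7 and 151 CPM in Col-0 from pots. These are bulk samples, in which fewer cells of a type and less RNA per cell cannot be told apart.

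The coding sequences show how the reads of close relatives were separated. In the RefSeq TAIR10.1 annotation all 10 members hold the codons of the asparagine-proline-alanine (NPA) motif that lines aquaporin pores, searched in frame on the coding strand as AACCCNGCN or AATCCNGCN. The first copy in 4 members, at the start of the pore-forming loop, is shown with the motif codons in capitals. PIP1-1 lies at chr3:22734251-22734280, plus strand, PIP2-1 at chr3:19804648-19804677, minus strand, PIP2-2 at chr2:15614338-15614367, minus strand, and PIP2-3 at chr2:15618203-15618232, plus strand.
PIP1-1: ggacacatcAACCCAGCGgttacttttggt
PIP2-1: ggtcacattAACCCAGCGgtgacatttggg
PIP2-2: ggtcacataAACCCTGCGgtgacgtttggt
PIP2-3: ggtcacataAACCCTGCGgtgacgtttggt
PIP2-2 and PIP2-3 are identical here, so only bases outside this stretch can place a read in one of them. They are neighbours on chromosome 2, at 15613368 to 15615022 (minus strand) and 15617635 to 15619155 (plus strand).

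Over 858 aligned coding bases PIP2-2 and PIP2-3 differ at 45 (94.8% identity, longest identical run 242 bases). The next most alike pair was PIP1-1 and PIP1-2 at 87.6%. The 30-base coding window in which PIP2-2 and PIP2-3 differ most, with 7 differing bases in capitals, shows what assigns a read to one gene. It lies at chr2:15614219-15614248, minus strand, in PIP2-2 and at chr2:15618322-15618351, plus strand, in PIP2-3.
PIP2-2: CaaAgcCtttcaaagctctTactatgAtCG
PIP2-3: GaaGgcAtttcaaagctctCactatgTtAA
Of all 50-base stretches within annotated exons, 85.3% for PIP2-2 and 83.5% for PIP2-3 occurred once in the genome. For the other 8 members this was 100%. By this measure PIP2-2 and PIP2-3 can be told apart over part of each gene only, and the assignment of their reads is the least certain of the family. The actual read length did not enter this measure.

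Levels per length spanned a wide range among the members and kept nearly the same order in all 6 groups. PIP2-1, PIP1-2 and PIP2-2 held the first 3 places in every group, and PIP2-1 was first in 5 of 6. In CPM per kilobase of exon, PIP2-1 reached 1440 and 1940 in pho1-7 hpr1-5, 1340 and 1550 in pho1-7 tex1-4, 1302 and 1583 in pho1-7, and 1472 and 1629 in Col-0 from pots. On plates it ran from 416 to 542 in tex1-4, against 514 to 622 in Col-0. PIP2-1 is a main root water channel, and these values put it at or near the top of the family wherever it was measured.

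In Col-0 from pots the order by mean level per kilobase was PIP2-1, PIP1-2, PIP2-2, PIP1-1, PIP1-3, PIP2-7, PIP1-5, PIP2-3, PIP2-4 and PIP1-4. Sample values overlapped for PIP1-2 with PIP2-2 and for PIP2-3 with PIP2-4, so those neighbours did not differ beyond their spread. At the low end PIP1-4 averaged 56.2 ± 5.01 (SD, n = 2) CPM per kilobase, against 1550 ± 111 for PIP2-1. In Col-0 from plates PIP2-4 (62.7 ± 7.13, n = 3) and PIP2-3 (66.9 ± 9.68) were the lowest, overlapping in their samples, and PIP1-4 (74.4 ± 1.79) overlapped with PIP2-3. PIP2-3 moved most in rank, from place 7 to place 10 over the 6 groups. The members differ in location within the root and in regulation, and their transcript levels covered more than an order of magnitude.

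**Figure D1:**
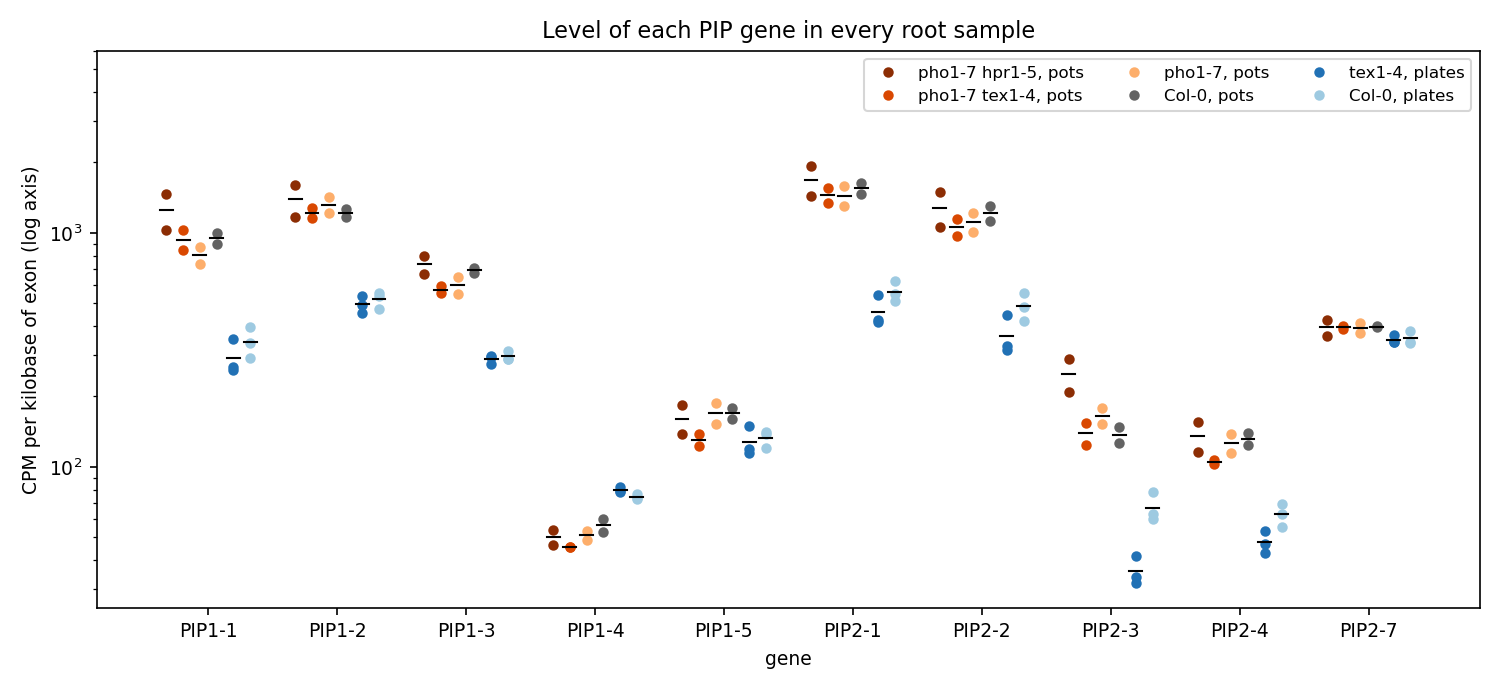
Level of each PIP gene in CPM per kilobase of exon (log axis), 1 point per sample and a bar at the group mean, groups ordered by genotype within pots and then plates. The 8 pot samples lie above the 6 plate samples for 7 of the genes, while PIP1-4 lies lower in pots and PIP2-7 and PIP1-5 overlap between the settings.

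Summed over the 10 members, the family reached 12764 and 9486 CPM in pho1-7 hpr1-5, 8613 and 9770 CPM in pho1-7 tex1-4, 10201 and 8588 CPM in pho1-7, and 9422 and 10367 CPM in Col-0 from pots. On plates the sum was 3639, 3699 and 4396 CPM in tex1-4, against 4040, 4745 and 4496 CPM in Col-0. The pot genotypes overlapped in this sum, with the highest and one of the middle values both in pho1-7 hpr1-5. PIP1 genes took 48.6 to 50.5% of the summed CPM in the pot samples. They took 50.7 to 53.2% in tex1-4 on plates, against 48.0 to 49.0% in Col-0 on plates, 2 ranges that did not overlap.

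In every group most members differed between libraries in the same direction, with replicate 3 of Col-0 on plates mixed. In pho1-7 hpr1-5, 10 of 10 members were higher in replicate 1 than in replicate 2, by a median of 0.43 on the log2 scale, while the median of all genes was -0.01. In pho1-7, 10 of 10 were higher in replicate 1 (median 0.24), and in Col-0 from pots 10 of 10 in replicate 2 (median 0.16). In pho1-7 tex1-4, 8 of 10 were higher in replicate 2 (median 0.16). In tex1-4 on plates, 10 of 10 were higher in replicate 3 than in the mean of the others (median 0.29). In Col-0 on plates 0 of 10 were higher in replicate 1 (median -0.19) and 7 of 10 in replicate 2 (median 0.18). Replicate 3 was mixed, with 7 of 10 higher, a median of 0.04 and values from log2 -0.22 for PIP2-3 to 0.17 for PIP2-7.

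The tonoplast aquaporins (TIPs), which carry water across the vacuolar membrane, shifted with the PIPs: 6 of 6 tested TIPs were higher in replicate 1 of pho1-7 hpr1-5, by a median of 0.43, and 6 of 6 in replicate 1 of pho1-7 (0.34) and in replicate 2 of Col-0 from pots (0.19). Cell type markers also differed between libraries. The medians of the TIPs and of the endodermis markers had the sign of the PIP median in every library. The xylem median had it too, except in Col-0 from pots and in replicate 1 of tex1-4 on plates. Green-tissue markers kept to no 1 pattern. In groups of 2 libraries each library mirrors the other, so the pair counts as 1 observation. In pho1-7 hpr1-5, 4 of 4 endodermis and 4 of 4 xylem markers were higher in replicate 1 (medians 0.34 and 0.30) and 0 of 6 green-tissue markers were. In pho1-7, 3 of 4 endodermis, 4 of 4 xylem and 6 of 6 green-tissue markers were higher in replicate 1. In Col-0 from pots, 3 of 4 endodermis, 0 of 4 xylem and 6 of 6 green-tissue markers were higher in replicate 2. In pho1-7 tex1-4, 3 of 4 endodermis (median 0.12), 4 of 4 xylem and 6 of 6 green-tissue markers were higher in replicate 2. In tex1-4 on plates, 4 of 4 endodermis (median 0.53), 3 of 4 xylem and 3 of 6 green-tissue markers were higher in replicate 3. In replicate 1 of Col-0 on plates, 1 of 4 endodermis (median -0.45), 0 of 4 xylem and 6 of 6 green-tissue markers were higher. Summed endodermis markers ran from 278 to 359 CPM in pho1-7 hpr1-5, xylem markers from 192 to 242 CPM and green-tissue markers from 71.7 to 172 CPM, with no marker at 0. Their part in the PIP values was not tested. The fitted biological variation was 12.7% for PIP1-1 and 7.02% for PIP2-7 in the pot samples, the ends of the family's range, beside a median of 7.53% over all genes tested.

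**Figure D2:**
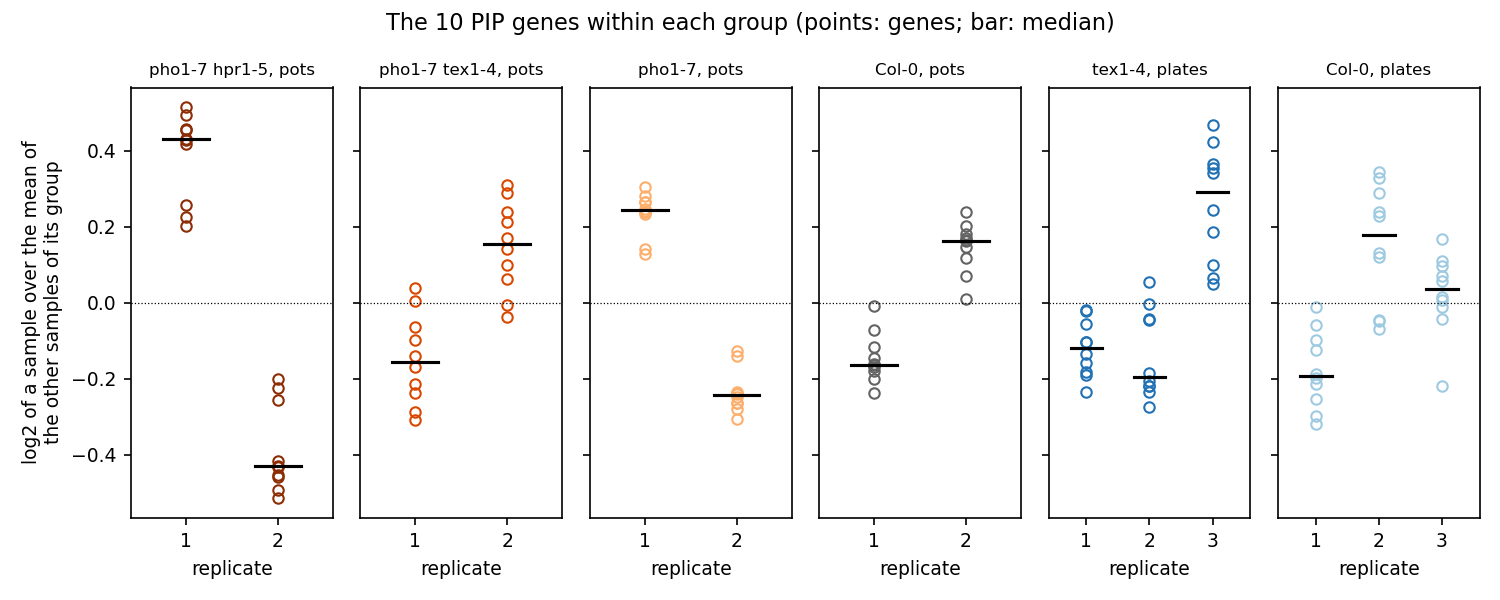
Each point is 1 of the 10 PIP genes, plotted as the log2 difference (no unit) of a sample from the mean of the other samples in its group, with a bar at the median. In pho1-7 hpr1-5 replicate 1 lies above replicate 2 for 10 of 10 genes.

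Adding hpr1-5 to pho1-7 asked what loss of HPR1 does to these channels. PIP1-1 and PIP2-3 rose, 2 of 10 members, beside 41.2% of all genes called in either direction and 21.2% called higher. A call here is an adjusted p under 0.1 in edgeR's quasi-likelihood test, adjusted over all genes. PIP1-1, an abundant root PIP1, had 2291 and 1603 CPM in pho1-7 hpr1-5, against 1354 and 1146 CPM in pho1-7. The groups did not overlap, and the fold change was 1.55 (log2 0.63 ± 0.18 SE, adjusted p 0.032). PIP2-3, also known as RD28 and first described as a desiccation-responsive gene, had 352 and 256 CPM in pho1-7 hpr1-5, against 218 and 185 CPM in pho1-7. Its change was log2 0.58 ± 0.17 SE (adjusted p 0.036), again without overlap.

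The median log2 change of the 10 members was 0.14, beside 0.01 for all genes, and 7 of 10 values were positive. Values were also positive for 4 of 4 endodermis markers (median 0.21, 1 called higher) and 4 of 4 xylem markers (median 0.18, 1 called higher), and for 0 of 3 phloem markers (1 called lower). Root hair and epidermis markers were positive in 1 of 4 (median -0.17, 1 called higher). Green-tissue markers were positive in 2 of 6 (median -0.20, none called). Summed endodermis markers stood at 278 to 359 CPM in pho1-7 hpr1-5, against 256 to 309 CPM in pho1-7, xylem markers at 192 to 242 CPM, against 175 to 209 CPM, and phloem markers at 106 to 118 CPM, against 135 to 136 CPM. No marker was at 0, and their part in the PIP values was not tested. PIP1-3 missed the threshold at log2 0.28 ± 0.12 SE (adjusted p 0.10). PIP2-7 stood at log2 -0.01, with an interval of 2 SE from -0.19 to 0.18. Both calls rest on single libraries: without replicate 1 of pho1-7 hpr1-5, or without replicate 2 of pho1-7, 0 members were called, and without replicate 2 of pho1-7 hpr1-5, 5 were.

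Against Col-0, which lacks both mutations, pho1-7 hpr1-5 showed 1 of 10 members called, PIP2-3, higher by 1.78-fold (log2 0.83 ± 0.17 SE, adjusted p 0.0070). Over all genes 51.5% were called, 25.5% higher. PIP2-3 had 352 and 256 CPM in pho1-7 hpr1-5, against 154 and 182 CPM in Col-0 from pots. The other 9 members lay between log2 -0.20 (PIP1-4) and 0.37 (PIP1-1). Beside them 2 of 4 endodermis markers were called higher and 1 of 4 xylem markers lower. Of the phloem markers 1 of 3 was called lower, and of the root hair and epidermis markers 1 of 4 higher. The part of these markers in the PIP values was not tested. The PIP2-3 call stayed in every fit that left out 1 library.

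The 2 double mutants share pho1-7 and differ in the THO subunit lost. In pho1-7 hpr1-5 against pho1-7 tex1-4, PIP2-3 was 1.76-fold higher (log2 0.81 ± 0.17 SE, adjusted p 0.013) and PIP1-3 1.26-fold higher (log2 0.33 ± 0.12 SE, adjusted p 0.071). These were 2 of 10 members, beside 36.8% of all genes called and 17.5% called higher. PIP2-3 had 352 and 256 CPM in pho1-7 hpr1-5, against 152 and 188 CPM in pho1-7 tex1-4. PIP1-3 had 1238 and 1036 CPM, against 854 and 915 CPM. Values were positive for 9 of 10 members (median log2 0.26, all genes -0.03). They were also positive for 4 of 4 endodermis markers (median 0.27, 1 called higher), 4 of 4 xylem markers (0.16, none called) and 6 of 6 green-tissue markers (0.63, none called). Of the phloem markers 1 of 3 was positive (median -0.20, 1 called lower). Root hair and epidermis markers were positive in 2 of 4 (median -0.07, 1 called higher and 1 lower). Summed endodermis markers stood at 278 to 359 CPM in pho1-7 hpr1-5, against 250.3 to 272 CPM in pho1-7 tex1-4, xylem markers at 192 to 242 CPM, against 175 to 193 CPM, and green-tissue markers at 71.7 to 172 CPM, against 8.99 to 126 CPM. No marker was at 0, and their part in the PIP values was not tested. The PIP2-3 call stayed without any 1 library. Without replicate 2 of pho1-7 hpr1-5 the count was 7, and PIP1-3 was lost in 4 fits, those without replicate 2 of Col-0, either replicate of pho1-7 tex1-4 or replicate 1 of pho1-7 hpr1-5.

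Adding tex1-4 to pho1-7 gave no call among the 10 members in edgeR, beside 46.4% of all genes. At an unadjusted p under 0.05 there was 1 member, and DESeq2 called 1, in both cases PIP1-5. PIP1-5 had 163 and 184 CPM in pho1-7 tex1-4, against 250 and 202 CPM in pho1-7 (log2 -0.36 ± 0.16 SE, adjusted p 0.10). Without either replicate of pho1-7 hpr1-5 or without replicate 2 of pho1-7 it was called. The member median was log2 -0.08, beside 0.02 for all genes.

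Against Col-0, pho1-7 tex1-4 had 3 of 10 members called, all lower, beside 55.8% of all genes called and 27.5% called lower. PIP1-4, a channel reported to pass hydrogen peroxide as well as water, had 91.3 and 91.0 CPM in pho1-7 tex1-4, against 105 and 120 CPM in Col-0 (fold 0.809, log2 -0.31 ± 0.09 SE, adjusted p 0.029). PIP1-5 had 163 and 184 CPM, against 212 and 238 CPM in Col-0 (fold 0.769, log2 -0.38 ± 0.16 SE, adjusted p 0.078). PIP1-3 had 854 and 915 CPM, against 1048 and 1100 CPM in Col-0 (fold 0.822, log2 -0.28 ± 0.12 SE, adjusted p 0.081). In all 3 genes the samples did not overlap.

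PIP2-4, a PIP2 found mainly in roots, missed the threshold at log2 -0.33 ± 0.15 SE (adjusted p 0.10) with 149 and 156 CPM in pho1-7 tex1-4, against 179 and 202 CPM in Col-0. It was called lower in 7 of 14 alternative fits, among them DESeq2 (adjusted p 0.041) and the fit of these 2 groups alone (adjusted p 0.012), and in those fits the calls were not limited to PIP1 genes. Xylem markers were lower beside these genes, 3 of 4 called. Their sums were 175 and 193 CPM in pho1-7 tex1-4, against 243 and 262 CPM in Col-0. In pho1-7 alone the xylem sums were 175 to 209 CPM, and 2 of 4 were called lower than in Col-0. In pho1-7 tex1-4 against pho1-7, 1 of 4 xylem markers was called higher and 0 lower. Root hair and epidermis markers were higher, 2 of 4 called, with sums of 124 and 132 CPM in pho1-7 tex1-4, against 107 and 121 CPM in Col-0. No marker of either list was at 0. Their part in the PIP values was not tested. Without replicate 2 of Col-0 or replicate 2 of pho1-7 tex1-4, 0 members were called, and without replicate 1 of pho1-7 tex1-4 only PIP1-4 was.

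The pho1-7 mutation on its own, in roots of plants with impaired phosphate export to the xylem, gave 0 of 10 members called in edgeR, beside 13.6% of all genes. None passed an unadjusted p of 0.05 there. DESeq2 called 0, with 1 under that unadjusted p. The largest difference was that of PIP1-1 at log2 -0.26 ± 0.18 SE, and the smallest interval, that of PIP2-7, ran from log2 -0.22 to 0.15 at 2 SE. These comparisons share the Col-0 or pho1-7 samples, so their values are not independent of each other.

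**Figure D3:**
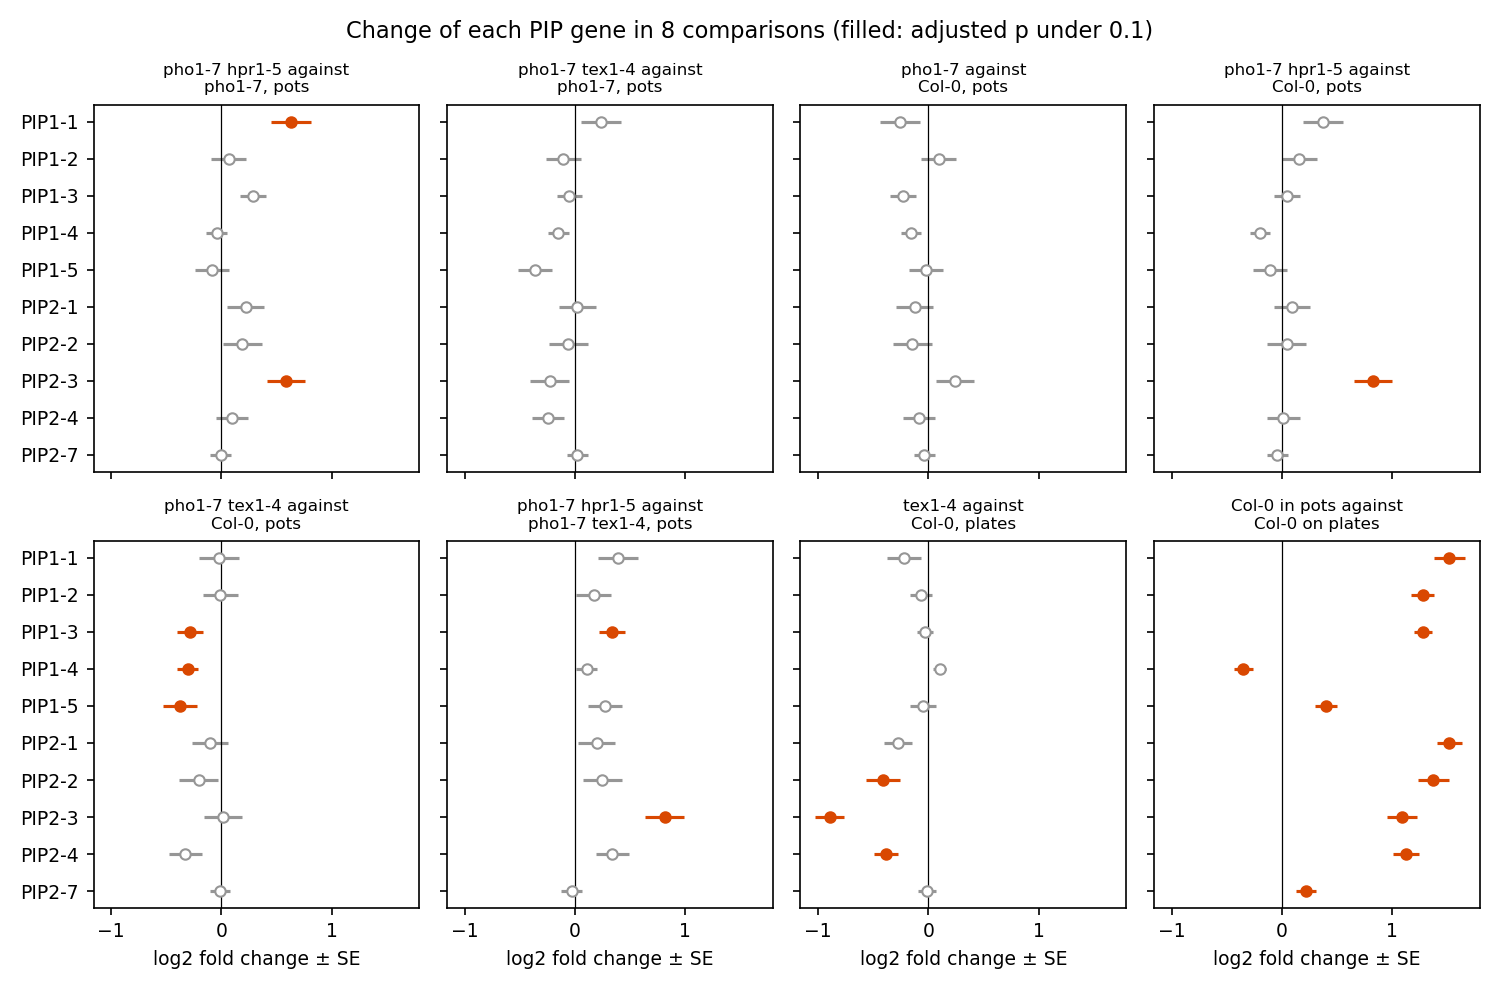
Log2 fold change of each PIP gene with its SE in 8 comparisons, the group named first over the one named second; filled points had an adjusted p under 0.1. PIP2-3 has the largest genotype changes, log2 0.83 in pho1-7 hpr1-5 against Col-0 and -0.89 in tex1-4 against Col-0 on plates, and the last panel shows 9 genes higher and PIP1-4 lower in pots.

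On plates, tex1-4 was compared with Col-0 without pho1-7 in the background. The 3 of 10 members called were all PIP2 genes and all lower, beside 37.2% of all genes called and 19.3% called lower. PIP2-3 had 41.3, 38.9 and 50.9 CPM in tex1-4, against 76.6, 95.1 and 73.3 CPM in Col-0, with no overlap (fold 0.538, log2 -0.89 ± 0.13 SE, adjusted p 0.0053). PIP2-4 had 68.1, 62.1 and 77.1 CPM in tex1-4, against 80.3, 101 and 91.0 CPM in Col-0, also with no overlap (fold 0.766, log2 -0.39 ± 0.11 SE, adjusted p 0.037). PIP2-2 had 442, 425 and 599 CPM in tex1-4, against 565, 741 and 651 CPM in Col-0. Its groups overlapped through replicate 3 of tex1-4 (fold 0.752, log2 -0.41 ± 0.16 SE, adjusted p 0.091).

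PIP2-1 did not pass (log2 -0.28 ± 0.13 SE, adjusted p 0.14), and the PIP1 genes lay between log2 -0.22 and 0.10. Markers also moved in this comparison. Xylem markers were called lower in 3 of 4, with sums of 201 to 267 CPM in tex1-4, against 327 to 416 CPM in Col-0. Green-tissue markers were called lower in 5 of 6, with sums of 55.7 to 67.0 CPM, against 97.4 to 124 CPM. Of the phloem markers 1 of 3 was called lower, with sums of 99.3 to 111 CPM, against 107 to 111 CPM. No marker of these lists was at 0, and their part in the PIP values was not tested. The PIP2-3 call stayed without any 1 library, while PIP2-2 and PIP2-4 were both lost without replicate 1 or without replicate 2 of tex1-4. PIP2-2 was also lost without replicate 2 or replicate 3 of Col-0, and without replicate 3 of tex1-4 the count was 4, with PIP2-1 added.

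The change that tex1-4 brought on pho1-7 in pots was set against the change it brought on Col-0 on plates. In this test of the difference 0 of 10 members were called in edgeR, beside 4.92% of all genes, and DESeq2 called 0. At an unadjusted p under 0.05 there were 2, PIP2-3 (log2 0.65 ± 0.24 SE, adjusted p 0.20) and PIP1-4 (log2 -0.26 ± 0.10 SE, adjusted p 0.24). The PIP2-3 value is the difference between log2 -0.23 ± 0.17 SE in pots and -0.89 ± 0.13 SE on plates.

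PIP2-3 was therefore the member with the largest genotype changes, and its nearest relative PIP2-2 served as a yardstick within each library. This ratio was chosen after the values were seen and is given as a description, with no test. As a percentage of PIP2-2 reads, PIP2-3 reads were 17.5 and 18.0% in pho1-7 hpr1-5, 11.6 and 12.2% in pho1-7 tex1-4, 13.3 and 13.6% in pho1-7, and 10.1 and 10.4% in Col-0 from pots. The 4 pot genotypes did not overlap, and replicates lay closer to each other than to any other genotype although the CPM of both genes differed between them.

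Against pho1-7, the ratio of PIP2-3 to PIP2-2 was 1.32-fold higher in pho1-7 hpr1-5 and 0.886-fold in pho1-7 tex1-4. The ratio in pho1-7 was 1.31-fold that in Col-0 from pots. On plates it was 9.36, 9.15 and 8.5% in tex1-4, against 13.5, 12.8 and 11.3% in Col-0, with no overlap and a fold of 0.719. In pots the ratio in pho1-7 tex1-4 lay between those of pho1-7 and Col-0, and on plates the ratio in tex1-4 lay below that of Col-0. Reads that fit both genes are not counted, and pots and plates differ in read layout by the labels, so ratios are compared here only within pots and within plates.

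**Figure D4:**
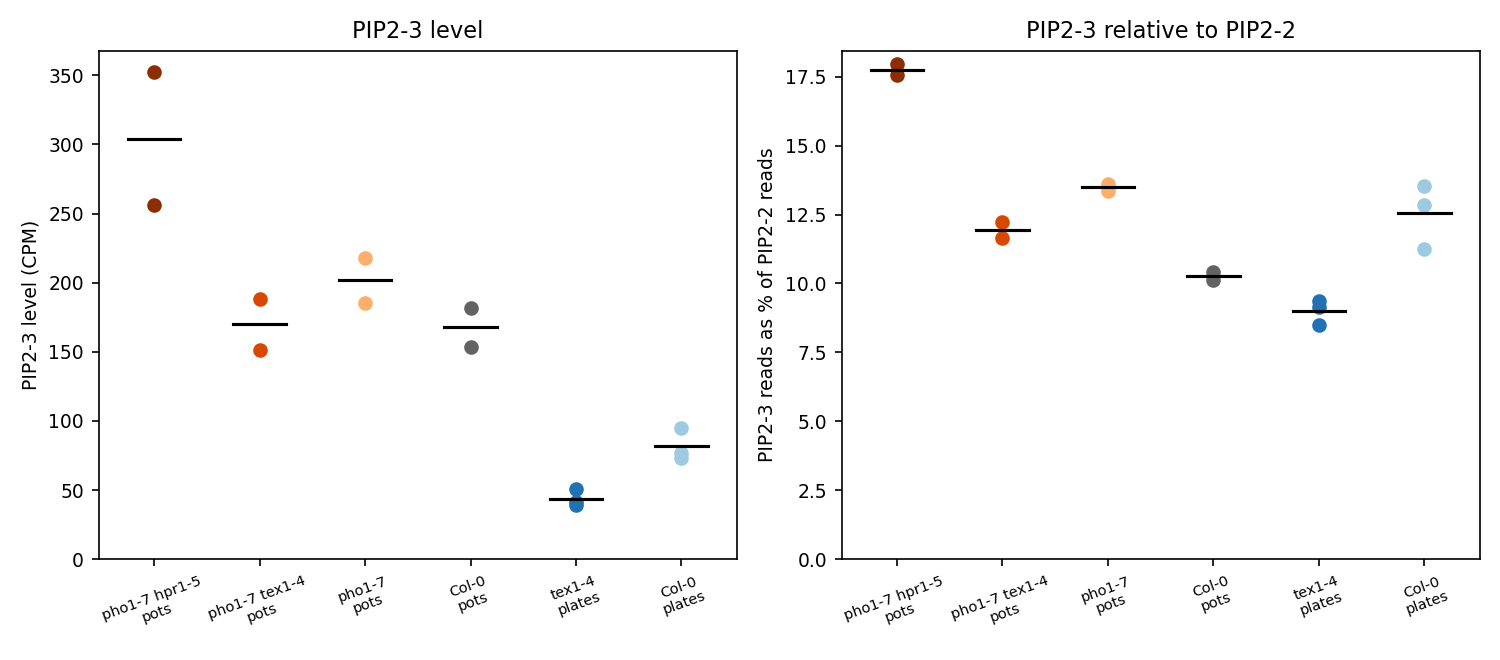
Left, PIP2-3 level in CPM per sample; right, PIP2-3 reads as a percentage of PIP2-2 reads in the same sample, with points for samples and a bar at the group mean. On the right the pho1-7 hpr1-5 samples lie at 17.5 and 18.0%, above all others, and the tex1-4 plate samples at 8.5 to 9.36% lie below Col-0 from plates.

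Between growth settings the whole family moved. In Col-0 roots from pots against Col-0 roots from plates, 10 of 10 members were called, beside 55.9% of all genes: 9 were higher (27.6% of all genes) and PIP1-4 was lower (28.4% of all genes). Of the 9, 7 were over 2-fold higher, beside 10.3% of all genes. PIP1-1 had 1390 and 1555 CPM in pots, against 457, 616 and 527 CPM on plates (fold 2.87, log2 1.52 ± 0.14 SE, adjusted p 0.00057). PIP2-1 had 2315 and 2562 CPM in pots, against 808, 979 and 864 CPM on plates (fold 2.87, log2 1.52 ± 0.11 SE, adjusted p 0.00027). PIP2-2, PIP1-2, PIP1-3, PIP2-4 and PIP2-3 followed, between log2 1.38 and 1.09, and none of the 7 overlapped between the settings.

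The 3 other members behaved differently in size or direction. PIP1-5 was 1.32-fold higher in pots (adjusted p 0.021). PIP2-7, a PIP2 that is also well expressed in shoots, had 635 and 639 CPM in pots, against 542, 549 and 613 CPM on plates (fold 1.16, adjusted p 0.091). PIP1-4 had 105 and 120 CPM in pots, against 148, 146 and 153 CPM on plates (fold 0.785, log2 -0.35 ± 0.08 SE, adjusted p 0.018). PIP2-7 was lost in 3 of 5 fits that left out a library, PIP1-4 without replicate 1 from pots and PIP1-5 without replicate 2 from pots. Age, substrate, sucrose and library layout differ together here and cannot be told apart. Endodermis markers were lower in pots beside the PIPs, 3 of 4 called lower and 1 higher, with sums of 280 and 304 CPM in pots, against 416 to 644 CPM on plates. Of the xylem markers 2 of 4 were lower, with sums of 243 and 262 CPM in pots, against 327 to 416 CPM on plates, and of the phloem markers 2 of 3 were higher, with sums of 124 and 150.4 CPM in pots, against 107 to 111 CPM on plates. Root hair and epidermis markers had 1 higher and 2 lower of 4, and green-tissue markers 3 higher and 2 lower of 6. No marker was at 0, and their part in the PIP values was not tested.

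PIP2-7 was the steadiest member across genotypes. It averaged 633 CPM in pho1-7 hpr1-5, 633 CPM in pho1-7 tex1-4, 631 CPM in pho1-7 and 637 CPM in Col-0 from pots. On plates it averaged 560 CPM in tex1-4 and 568 CPM in Col-0. The highest pot group mean was 1.01 times the lowest for PIP2-7, against 1.81 for PIP2-3, 1.56 for PIP1-1, and between 1.15 (PIP1-2) and 1.3 (PIP1-5) for the other 7.

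An extension count, the reads just 3' of a gene in a region the authors had defined, exists for 1 member, PIP1-3. These reads were few: 45 and 38 in pho1-7 hpr1-5, 11 and 24 in pho1-7 tex1-4, 36 and 19 in pho1-7, and 40 and 42 in Col-0 from pots. Per 100000 reads on the gene they came to 51.6 and 56.8 in pho1-7 hpr1-5, 21.7 and 25.4 in pho1-7 tex1-4, 56.9 and 33.1 in pho1-7, and 51.9 and 55.5 in Col-0. The pho1-7 tex1-4 samples were the lowest of the 8. On plates there were 1, 2 and 7 extension reads in tex1-4, against 0, 0 and 0 in Col-0.

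The ratio of extension to gene reads was tested in edgeR with a model for both counts, calling an adjusted p under 0.1 and more than 2-fold. In pho1-7 tex1-4 the ratio for PIP1-3 was lower than in Col-0 (log2 -1.15 ± 0.29 SE, adjusted p 0.0051), beside 11.0% of all extensions called. In pho1-7 hpr1-5 it was higher than in pho1-7 tex1-4 (log2 1.16 ± 0.29 SE, adjusted p 0.011), beside 5.21%. Against pho1-7, the pho1-7 tex1-4 value of log2 -0.91 ± 0.31 SE (adjusted p 0.050) was under the fold threshold, beside 8.71% called. The value depended on the pho1-7 library kept: it was log2 -1.24 without replicate 2 of pho1-7 and log2 -0.46 without replicate 1. DESeq2 on the same ratio model gave log2 -0.91 with an adjusted p of 0.23, so there the p threshold was missed as well.

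No call for PIP1-3 was made in pho1-7 hpr1-5 against pho1-7 (log2 0.25 ± 0.26 SE, 8.92% called), in pho1-7 hpr1-5 against Col-0 (log2 0.01 ± 0.23 SE, 11.9% called) or in pho1-7 against Col-0 (log2 -0.24 ± 0.26 SE, 0.960% called). On plates the PIP1-3 ratio in tex1-4 was called higher than in Col-0 (adjusted p 0.032), beside 13.5% called. With 0 reads in Col-0 the size of the change is not known. Taking 3 reads over the Col-0 group as a floor, the pooled tex1-4 ratio was 2.98-fold above it. That floor is 2.41 per 100000 gene reads, and replicate 1 of tex1-4 alone, at 2.25, lay below it. The 10 tex1-4 reads just reached the minimum for testing, 7 of them from replicate 3, and without any 1 tex1-4 library the extension was not tested. The direction thus differed between pots and plates, and that difference was not tested.

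**Figure D5:**
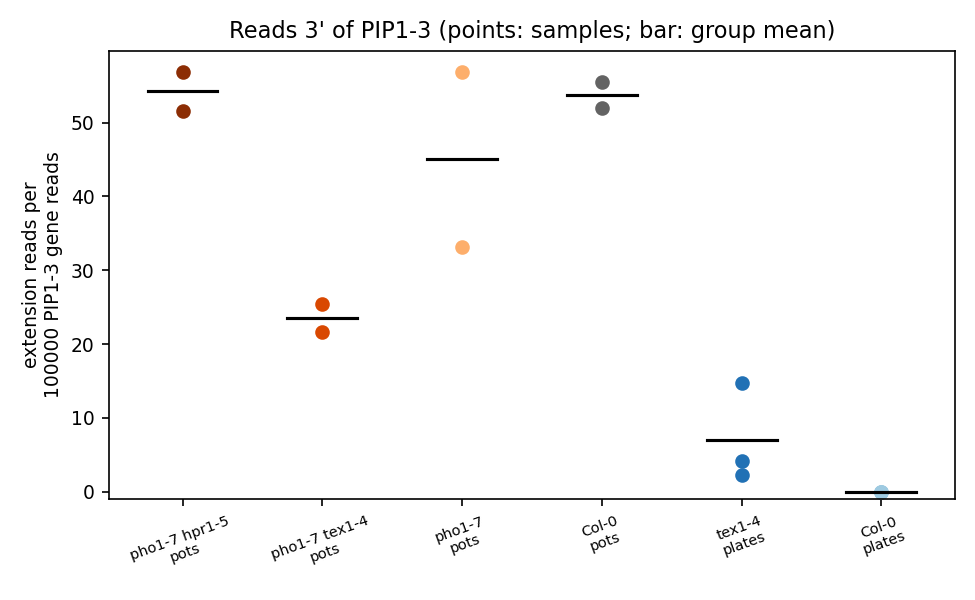
Extension reads per 100000 PIP1-3 gene reads in every sample, with a bar at the group mean. The pho1-7 tex1-4 samples lie at 21.7 and 25.4, the other pot samples at 33.1 to 56.9, and the Col-0 plate samples at 0.

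The 3 PIP2 genes outside the list were low. Between settings 2 of them were higher in pots, like most members. PIP2-5 had 30.8 and 23.8 CPM in Col-0 from pots, against 6.97, 6.07 and 6.27 CPM on plates (log2 2.14 ± 0.13 SE, adjusted p 0.00014). PIP2-8 was higher at log2 0.94 ± 0.17 SE (adjusted p 0.0066), while PIP2-6 was lower at log2 -1.04 ± 0.23 SE (adjusted p 0.014). Among genotypes they differed from the members in several comparisons. PIP2-5 had 16.7 and 13.7 CPM in pho1-7 hpr1-5, against 30.8 and 23.8 CPM in Col-0 from pots (log2 -0.87 ± 0.15 SE, adjusted p 0.0028). This was the opposite direction to PIP2-3. In pho1-7 alone PIP2-5 stood at 19.7 and 16.3 CPM. In pho1-7 hpr1-5 against pho1-7, 0 of these 3 genes were called. PIP2-8 had 29.4 and 30.5 CPM in pho1-7 tex1-4, against 20.4 and 21.7 CPM in pho1-7 (log2 0.53 ± 0.08 SE, adjusted p 0.0025). PIP2-6 averaged 22.5 ± 2.37 CPM in tex1-4 on plates, against 12.4 ± 1.67 CPM in Col-0 (SD, n = 3 each), with no overlap (log2 0.87 ± 0.13 SE, adjusted p 0.0051), while the listed PIP2 genes were lower there or did not pass.

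In the other aquaporin classes, 6 of 10 TIPs, 7 of 9 NIPs (nodulin-26-like channels) and 3 of 3 SIPs (small basic channels) had enough reads to test in the genotype comparisons. In pho1-7 hpr1-5 against Col-0, 1 TIP was higher and 1 lower of 6, beside 51.5% of all genes called. TIP2-3 had log2 0.64 ± 0.20 SE and TIP4-1 log2 -0.33 ± 0.14 SE. Among the 7 NIPs 1 was higher and 4 lower, beside the same share, with NIP5-1, a boric acid channel, at log2 -0.39 ± 0.08 SE. In tex1-4 against Col-0 on plates TIP2-1, an ammonia and water channel, was higher at log2 0.67 ± 0.12 SE and TIP2-3 lower at log2 -0.49 ± 0.18 SE. NIP6-1 was higher in pho1-7 hpr1-5 than in pho1-7 tex1-4, at log2 0.60 ± 0.14 SE.

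Of 11 genes for PIP trafficking and control, 10 were tested in pots. RMA1 is an endoplasmic reticulum ubiquitin ligase that acts on PIP2-1 protein. It had 91.3 and 84.3 CPM in pho1-7 hpr1-5, 24.2 and 21.7 CPM in pho1-7 tex1-4, 34.7 and 31.7 CPM in pho1-7, and 20.4 and 22.8 CPM in Col-0. Its level was 2.63-fold higher in pho1-7 hpr1-5 than in pho1-7 (log2 1.39 ± 0.09 SE, adjusted p 0.00010) and 1.51-fold higher in pho1-7 than in Col-0 (adjusted p 0.0098). In pho1-7 tex1-4 it was lower than in pho1-7 (log2 -0.52 ± 0.09 SE, adjusted p 0.0046). VAMP711, a vacuolar SNARE, was lower in both double mutants than in pho1-7, at log2 -0.39 ± 0.13 SE with hpr1-5 and -0.46 ± 0.13 SE with tex1-4.

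As a description, the 3 genes whose mean-centred log2 levels over the 6 groups lay closest to the mean PIP1 profile were MCA1 (AT4G35920), a stretch-responsive calcium channel component, AT4G15450 and AT1G57650, each with a root mean square difference of 0.05. For the PIP2 profile the nearest 3 were AT4G11550, SPX4 (AT5G15330), a phosphate-signalling gene, and AT5G38450, each at 0.08. Of the members themselves, PIP2-4 lay closest to the PIP2 mean (0.07) and PIP2-7 farthest from it (0.52). PIP1-3, the closest to the PIP1 mean, stood at 0.19 and PIP1-4, the farthest, at 0.64.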

How the data were processed

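Root RNA from 14 samples in 6 groups was sequenced from stranded polyadenylated libraries. The authors deposited raw read counts per gene and per 3' extension region, and the submitters' processing notes name HISAT2, HTSeq and TAIR10, with no versions for the tools. The extension regions, 1462 in all, had been assembled by the authors from their own data. Reads that were not assigned to a gene made up 17.1 to 19.6% of each table and were left out of library sizes. Unused sample columns numbered 0.

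Counts as deposited were tested in edgeR 4.0.16 (R 4.3.3) with TMM scaling, its expression filter and the quasi-likelihood test. P-values were adjusted by Benjamini-Hochberg over all tested genes, and a call needed an adjusted p under 0.1. The 8 pot samples and the 6 plate samples were fitted separately, the 5 Col-0 samples together, and all 14 samples for the difference of the tex1-4 effects. All 10 members passed the filter in each fit. CPM used TMM factors over the 14 samples, and levels per kilobase used the exon length of the RefSeq TAIR10.1 annotation. Extension and gene counts of regions with at least 10 extension reads were fitted in 1 model, and a call also needed more than 2-fold. DESeq2 1.42.0, other scaling and filters, left-out libraries and a replicate block were alternatives.

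Members and lists were chosen with earlier results of these data known. Besides the members, the text names the other PIP genes, up to 2 higher and 2 lower called genes per list and comparison by smallest adjusted p, the mutated genes, and the genes nearest to the mean PIP profiles. The series describes its replicates as biological. P-values set a difference between groups against the spread between these samples, which was estimated over the groups of each fit.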

Additional observations from a re-analysis of the deposited data

How the results depend on the processing

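Counts below are of the 10 PIP genes called. Where PIP2-2 and PIP2-3 reads were summed, the pair was tested as 1 gene, so a PIP2-3 call could not appear. Lower counts in that setting therefore do not bear on the PIP2-3 calls. No change that was called turned its direction under any alternative run. For pho1-7 tex1-4 against pho1-7 the count was 0, and it was 1 with DESeq2's size-factor scaling (RLE) in edgeR, 1 without a filter on low counts, 1 with DESeq2 and 2 when only those 2 groups were fitted. For pho1-7 hpr1-5 against pho1-7 it was 2, and 1 with PIP2-2 and PIP2-3 reads summed. For pho1-7 hpr1-5 against Col-0 it was 1, and 2 without the filter, 2 with DESeq2 and 0 with the summed reads. For pho1-7 hpr1-5 against pho1-7 tex1-4 it was 2, and 4 without the filter, 4 with DESeq2 and 1 with the summed reads. For pho1-7 tex1-4 against Col-0 it was 3, and PIP2-4 was added in 7 of 14 alternatives. With a 2-fold minimum added, 0 members were called in every genotype comparison. The cause of the other shifts was not tested.

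Leaving out each library in turn gave 0 to 1 call for pho1-7 tex1-4 against pho1-7, 0 to 5 for pho1-7 hpr1-5 against pho1-7, 0 to 4 for pho1-7 tex1-4 against Col-0, 1 to 3 for pho1-7 hpr1-5 against Col-0, 1 to 7 for pho1-7 hpr1-5 against pho1-7 tex1-4, 1 to 4 on plates and 8 to 10 for Col-0 in pots against plates. Calls for the PIP1-3 extension numbered 2 to 4. A group left with 1 sample was assumed to vary like the others.

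Deviations of samples with the same replicate number correlated between -0.29 and 0.29 in pots and between -0.23 and 0.14 on plates. With 2 samples a group in pots, the sign there hangs on the numbering alone. These values therefore cannot decide whether samples were paired. Fits with a replicate block kept the counts at 0, 0, 2, 3, 1 and 2 in the 6 pot comparisons and gave 2 instead of 3 on plates, where PIP2-2 was lost. Over all genes, the count for pho1-7 against Col-0 was 2986 and ran from 724 to 3462 over the alternatives. That for the difference of the tex1-4 effects was 1115, and ran from 371 to 2592. The lowest counts were 6351 beside 10202 for pho1-7 tex1-4 against pho1-7, 7653 beside 12261 for pho1-7 tex1-4 against Col-0, 7281 beside 11318 for pho1-7 hpr1-5 against Col-0, 4071 beside 8082 for pho1-7 hpr1-5 against pho1-7 tex1-4, 4523 beside 8091 on plates and 7676 beside 12427 for Col-0 in pots against plates. With 2 or 3 samples a group and few extension reads, small changes could not be resolved.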
